A study of Mus musculus with 9 samples.

Results

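The miR-106b~25 cluster is a set of 3 microRNA hairpins that lie together in an intron of Mcm7, a subunit of the DNA replication helicase. Its members here were the 6 mature miRNAs of both arms of those hairpins, chosen by identifier out of 1915 mouse miRNA identifiers per library: mmu-miR-106b-5p, mmu-miR-106b-3p, mmu-miR-93-5p, mmu-miR-93-3p, mmu-miR-25-3p and mmu-miR-25-5p, written without the species prefix below. They were followed in small RNA libraries from extracellular vesicles, the membrane particles that cells shed, collected from the medium of a mouse podocyte line. Podocytes cover the capillaries of the kidney filter with their foot processes, and the line is conditionally immortalized, so that it grows at a low temperature with interferon-γ and differentiates at 37 °C without it. Differentiation took 10 days, with 5% fetal bovine serum in the medium, and treatment followed for 48 h, with 3 libraries for each of 3 media. These were high glucose (30 mM glucose), mannitol (5.3 mM glucose with 24.7 mM mannitol, the osmolality control) and normal glucose (5.3 mM glucose). Only 1 line was used, and nothing in the labels ties the libraries of a group to different cultures. The p-values below therefore speak of library-to-library spread that may be technical. In the vesicles, fewer releasing cells and less RNA per cell cannot be told apart.

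A hairpin is cut into a pair of mature strands, 1 from each arm (5p and 3p), of which usually only 1 is kept and guides silencing. Bases 2 to 8 of that strand, the seed, select the target mRNAs. By its seeds the cluster joins the miR-17 group (miR-93-5p and miR-106b-5p), known to repress the cell-cycle inhibitor Cdkn1a, and the miR-25/92 group (miR-25-3p), known to repress the pro-apoptotic Bcl2l11. The cluster is transcribed with Mcm7 in dividing cells, and in the kidney miR-93 has been linked to VEGF-A in podocytes under high glucose.

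The 3 hairpins lie on the minus strand of chromosome 5 within 498 bases, at chr5:138165321-138165818 of GRCm38. They are shown because the finding turns on which arm of each gave most of its counts, with the 5p arm and then the 3p arm in capitals (sequences from RefSeq, GRCm38.p6, written 5′ to 3′).
Mir106b: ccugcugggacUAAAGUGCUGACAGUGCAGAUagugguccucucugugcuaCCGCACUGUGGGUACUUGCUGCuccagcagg
Mir93: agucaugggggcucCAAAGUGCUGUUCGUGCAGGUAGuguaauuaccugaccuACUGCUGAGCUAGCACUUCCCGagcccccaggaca
Mir25: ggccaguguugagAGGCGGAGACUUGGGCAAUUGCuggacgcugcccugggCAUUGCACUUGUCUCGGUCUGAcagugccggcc

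In the direction of transcription Mir106b comes first, at chr5:138165737-138165818, then Mir93 at chr5:138165523-138165610 after a gap of 126 bases, and Mir25 at chr5:138165321-138165404 after a further 118 bases. In GENCODE M21 all 3 lie in the intron between exons 13 and 14 of the protein-coding transcript Mcm7-201. Mir93 and Mir25 also fall in an exon of a retained-intron transcript of Mcm7, and Mir106b does not.

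The mature members and the same-seed miRNAs of other clusters compared with them below are shown with the seed in capitals. The first 4 lines share the seed AAAGUGC, the next pair shares AUUGCAC, and the last 3 are the other arms of the cluster's hairpins.
miR-93-5p: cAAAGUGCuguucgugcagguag
miR-106b-5p: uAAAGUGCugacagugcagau
miR-17-5p: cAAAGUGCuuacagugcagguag
miR-20a-5p: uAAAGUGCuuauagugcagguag
miR-25-3p: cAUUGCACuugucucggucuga
miR-92a-3p: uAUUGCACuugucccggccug
miR-106b-3p: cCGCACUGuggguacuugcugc
miR-93-3p: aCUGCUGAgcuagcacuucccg
miR-25-5p: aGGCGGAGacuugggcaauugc

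Counted from the 5′ end, miR-106b-5p differed from miR-17-5p at 3 of the 21 positions both have (U1C, G10U and A20G), and miR-93-5p differed from miR-17-5p at 4 of 23 (G10U, U11A, U12C and C13A). Between miR-25-3p and miR-92a-3p 3 of 21 positions differed (C1U, U14C and U18C). No identifier had the same counts as a member across the libraries. The sources used here do not say how reads that match several miRNAs were assigned.

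Total miRNA counts were 725211 to 2553690 in high glucose, 1329426 to 2269776 with mannitol and 1087144 to 1539514 in normal glucose. The smallest count above 0 was 10 throughout, so that a miRNA listed at 0 may have had up to 9 reads. Levels below are CPM, a miRNA's count scaled to a library total of 1e+06 miRNA counts. They count mature strands of 21 to 23 bases without a correction for length or base composition, so ratios between strands are ratios of reads. As a check of the labelled cell type, the 8 podocyte-associated miRNAs of the marker list, none of which is found in podocytes alone, were listed in all 9 libraries. Their summed level was 167182 to 244254 CPM in high glucose, 123466 to 200509 CPM in mannitol medium and 146268 to 159853 CPM in normal glucose. Of the 4 tubule miRNAs 3 were listed in all libraries, led by miR-192-5p, and miR-204-5p in none, with sums of 3323 to 5008 CPM in high glucose, 2348 to 3211 CPM in mannitol medium and 2286 to 3483 CPM in normal glucose. Of 5 erythroid identifiers 3 were listed in all libraries, but miR-486a-5p and miR-486b-5p had identical counts and are counted once here. The sums were then 3124 to 4506 CPM in high glucose, 3826 to 10981 CPM in mannitol medium and 5023 to 8611 CPM in normal glucose, and the miR-144 arms were each listed in 1 library. Of the 4 white blood cell miRNAs 0 were listed in all libraries and miR-142a-3p in none, with sums of 11.7 to 57.9 CPM in high glucose, 22.0 to 46.6 CPM in mannitol medium and 20.1 to 44.2 CPM in normal glucose. The hepatocyte miRNA miR-122-5p stood at 9508 to 22511 CPM over the 9 libraries. The 3 muscle miRNAs, all listed throughout, summed to 1401 to 1761 CPM in high glucose, 1368 to 5994 CPM in mannitol medium and 1666 to 3029 CPM in normal glucose. Of the 2 endothelial miRNAs 1 was listed throughout, with sums of 276.5 to 678 CPM in high glucose, 308 to 344 CPM in mannitol medium and 229 to 825 CPM in normal glucose. Of the 2 neural miRNAs 1 was listed throughout, with sums of 23.9 to 273 CPM in high glucose, 37.1 to 135 CPM in mannitol medium and 13.8 to 65.0 CPM in normal glucose. The part of such other sources in the cluster's levels was not tested.

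The cluster was listed in every library, and most of its counts came from a single strand. Summed over the 6 members it took 3.63% ± 0.906 of miRNA counts in high glucose, 4.13% ± 1.22 with mannitol and 3.91% ± 1.21 in normal glucose (SD, n = 3 each). The ratio of the means was 0.927 for high against normal glucose, 0.878 for high glucose against mannitol and 1.06 for mannitol against normal glucose, and the ranges of the groups overlapped. With 1 library left out the log2 ratio of the means ran from -0.29 to 0.16 for high against normal glucose, from -0.38 to 0.047 for high glucose against mannitol and from -0.16 to 0.34 for mannitol against normal glucose, so the sign turned in each. On its own miR-25-3p made up 87.3% to 90.3% of the cluster's counts in the 9 libraries.

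miR-25-3p, known to silence Bcl2l11, ranked between place 5 and place 11 in every library and 8th by its mean over all of them, next to miR-27b-3p above and miR-151-3p below. It stood at 40275, 23359 and 33405 CPM in high glucose replicates 1 to 3, at 47792, 25692 and 36880 CPM with mannitol, and at 46608, 25397 and 32979 CPM in normal glucose. In every group the library numbered 1 was the highest and that numbered 2 the lowest, and the groups covered nearly the same range. Group means were 32346 ± 8508 CPM in high glucose, 36788 ± 11050 CPM in mannitol medium and 34995 ± 10748 CPM in normal glucose (± SD of 3 libraries), an order in which no neighbours differed beyond their spread.

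miR-93-5p, a strand with the seed known to silence Cdkn1a, was the second most abundant member by its mean. Its levels were 2260, 2169 and 2387 CPM in high glucose replicates 1 to 3, 2217, 2259 and 1312 CPM with mannitol, and 2761, 1792 and 2083 CPM in normal glucose. The high glucose libraries lay close together, mannitol replicate 3 was the lowest of all 9 and normal glucose replicate 1 the highest. Means were 2272 ± 109 CPM in high glucose, 1929 ± 535 CPM in mannitol medium and 2212 ± 497 CPM in normal glucose (± SD of 3 libraries).

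miR-106b-3p, from the arm opposite to the miR-17 seed, came close to miR-93-5p in level and lay above it in 2 of 9 libraries. It had 2110, 1060 and 1339 CPM in high glucose replicates 1 to 3, 3569, 1244 and 2551 CPM with mannitol, and 2704, 1116 and 1432 CPM in normal glucose. As for miR-25-3p, the library numbered 1 was highest and that numbered 2 lowest in each group. Its highest value was 3.37 times its lowest over the 9 libraries, against 2.05 times for miR-25-3p. Group means were 1503 ± 544 CPM in high glucose, 2455 ± 1165 CPM in mannitol medium and 1750.5 ± 841 CPM in normal glucose (± SD of 3 libraries).

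miR-106b-5p, which carries the miR-17 seed, was far rarer than its 3p partner. Its levels were 89.6, 143 and 121 CPM in high glucose replicates 1 to 3, 78.2, 132 and 68.7 CPM with mannitol, and 102, 82.8 and 105 CPM in normal glucose. Its smallest count was 65 reads, in high glucose replicate 1. High glucose replicate 2 was the highest of the 9 libraries, although it had the lowest level of miR-106b-3p, and mannitol replicate 3 was the lowest. Group means were 118 ± 26.6 CPM in high glucose, 92.8 ± 33.9 CPM in mannitol medium and 96.5 ± 12.0 CPM in normal glucose (± SD of 3 libraries).

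The 2 remaining strands were near the limit of listing. miR-93-3p had 46.9, 17.2 and 20.4 CPM in high glucose, 44.4, 17.6 and 23.8 CPM in the mannitol group, and 79.2, 30.4 and 19.9 CPM in normal glucose, on counts of 22 to 122 reads. The means of miR-93-3p were 28.2 ± 16.3 CPM in high glucose, 28.6 ± 14.0 CPM in mannitol medium and 43.2 ± 31.7 CPM in normal glucose (± SD of 3 libraries), and normal glucose replicate 1 stood above all other libraries. miR-25-5p was listed at 0 in all 3 high glucose libraries, was listed in mannitol replicate 3 only among mannitol libraries (26 reads, 11.5 CPM, exact 95% binomial interval 7.48 to 16.8), and in normal glucose had 20 reads (13.0 CPM, 7.94 to 20.1) in replicate 1 and 16 reads (14.7 CPM, 8.41 to 23.9) in replicate 2. A listed 0 allows up to 9 reads, which is 12.4 CPM in high glucose replicate 1, 7.05 CPM in replicate 2 and 3.52 CPM in replicate 3. The limit of high glucose replicate 1 lies above the lowest listed level and those of the other 2 high glucose libraries below all of them. With miR-25-5p at 0 in all 3, no fold change is given. Intervals cover counting error only.

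**Figure D1:**
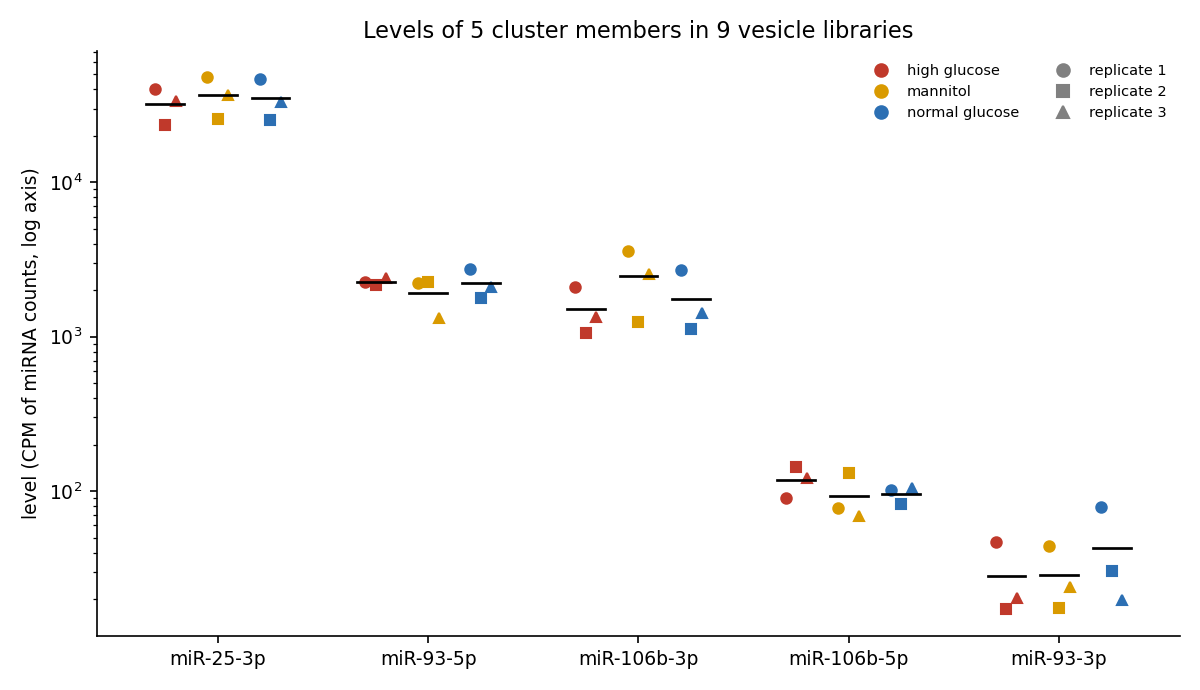
Level of each of the 5 members listed in all 9 libraries, in CPM on a log axis, with 1 point per library (colour for the group, shape for the replicate number) and a black line at the group mean. miR-25-3p lies between 23359 and 47792 CPM in all groups, miR-93-5p and miR-106b-3p lie near each other, and the 3 groups overlap for every member.

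The hairpins differed in which arm gave most of their counts in the vesicle libraries. For Mir93 and Mir25 the counts were almost wholly of 1 strand. Of Mir93, miR-93-5p gave 98.8% ± 0.702 in high glucose, 98.5% ± 0.640 with mannitol and 98.2% ± 0.930 in normal glucose (SD, n = 3 each). Of Mir25, miR-25-3p gave at least 99.9% in each library. For Mir106b it was the 3p arm, not the arm with the miR-17 seed, that made up 91.9% ± 3.90 of the hairpin's counts in high glucose, 95.2% ± 4.15 with mannitol and 94.2% ± 1.86 in normal glucose (SD, n = 3 each). The lowest share, in high glucose replicate 2, was 88.1% (1353 of 1535 reads, exact 95% binomial interval 86.4% to 89.7%), and the highest, in mannitol replicate 1, was 97.9% (4745 of 4849 reads, 97.4% to 98.2%). In counts per library miR-106b-3p exceeded miR-106b-5p by 7.43 to 45.6 times, with a median of 13.7 times.

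Since both strands are read in the same library, such ratios do not depend on library scaling. The arms of Mir106b did run in opposite directions with the GC content of a library's other miRNAs. Pearson's r was 0.914 for miR-106b-3p and -0.844 for miR-106b-5p, and the part of base composition in the ratios was not tested. Each ratio was compared between groups by an exact two-sided permutation test. With 3 libraries against 3 the smallest p it can give is 0.1, so no ratio could pass the threshold of 0.05, and the smallest p of the 24 tests (8 ratios in 3 comparisons) was 0.2. The Benjamini-Hochberg adjusted p was 0.835 or 1 throughout. The log2 ratio of miR-106b-3p to miR-106b-5p was 4.56, 2.89 and 3.46 in high glucose replicates 1 to 3, 5.51, 3.24 and 5.21 with mannitol, and 4.73, 3.75 and 3.77 in normal glucose. The libraries of all groups overlapped, and the spread within mannitol alone exceeded 2 log2 units. Its mean was 3.64 ± 0.845 in high glucose, 4.66 ± 1.23 with mannitol and 4.08 ± 0.558 in normal glucose (SD, n = 3 each), with exact permutation p = 0.4 for high against normal glucose, 0.3 for high glucose against mannitol and 0.6 for mannitol against normal glucose. For miR-93-3p over miR-93-5p the mean log2 ratio was -6.48 ± 0.771 in high glucose, -6.14 ± 0.747 with mannitol and -5.91 ± 0.795 in normal glucose (SD, n = 3 each).

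Between hairpins of the 1 transcript the strands stood far apart in level. miR-93-5p had 0.0356 to 0.0929 reads for each read of miR-25-3p over the 9 libraries, and miR-106b-5p had 0.0353 to 0.0657 reads for each read of miR-93-5p. The log2 ratio of miR-93-5p to miR-25-3p averaged -3.80 ± 0.363 in high glucose, -4.25 ± 0.671 with mannitol and -3.96 ± 0.128 in normal glucose (SD, n = 3 each). The difference was 0.17 for high against normal glucose (exact permutation p = 0.6), 0.45 for high glucose against mannitol (exact permutation p = 0.4) and -0.29 for mannitol against normal glucose (exact permutation p = 0.5). Each of these differences was smaller than the range of the high glucose libraries, from -4.16 to -3.43.

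**Figure D2:**
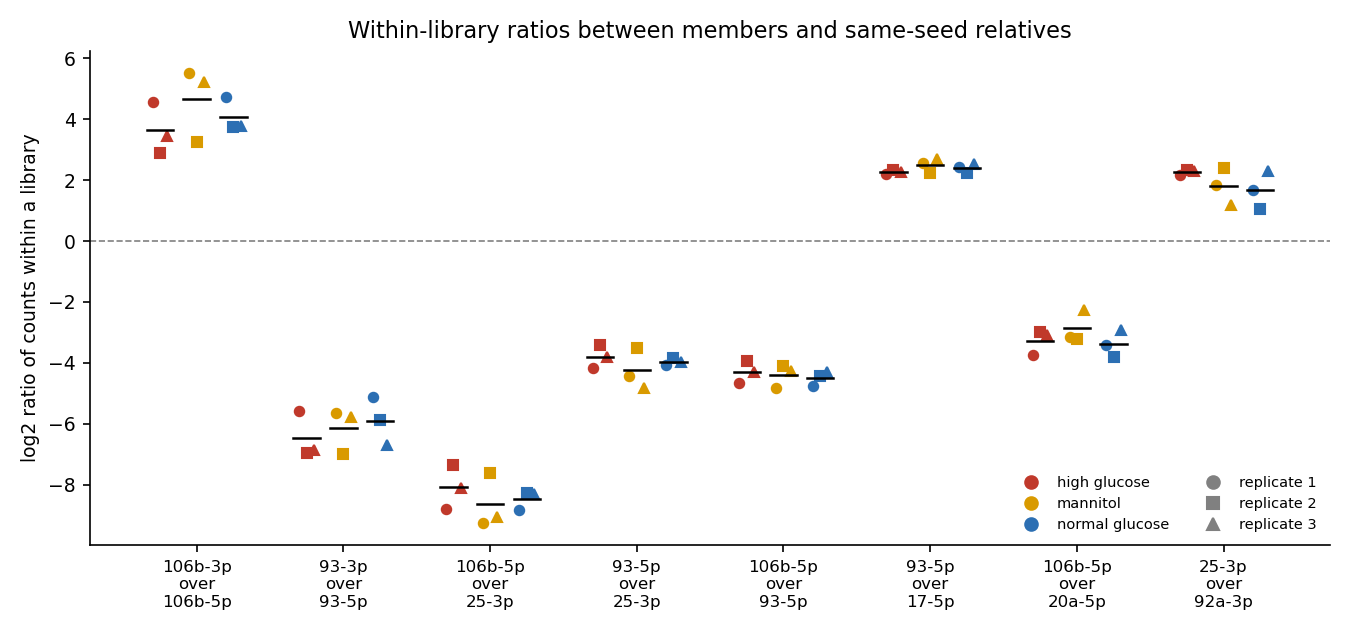
Log2 ratio of the counts of the first to the second miRNA within each library, with 1 point per library (colour for the group, shape for the replicate number) and a black line at the group mean; the dashed line marks equal counts. miR-106b-3p lies above miR-106b-5p in all 9 libraries, by log2 ratios of 2.89 to 5.51, and the groups overlap for each of the 8 ratios.

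The contrast of high with normal glucose carries the treatment as a whole, added glucose and added osmolality together, and no member of the cluster passed it. Of the 5 members listed in all libraries, 0 passed an adjusted p of 0.05 in edgeR, where 0% of the 361 miRNAs tested were called. At an unadjusted p under 0.05 there were 0 members by edgeR, DESeq2 or limma-voom, beside 2.77% of tested miRNAs by edgeR. All 5 had overlapping groups, while 9.42% of the miRNAs tested had groups without overlap. The most abundant strand, miR-25-3p, gave a fitted log2 change of -0.030 with an SE of 0.27 and a 95% interval of -0.61 to 0.55, which leaves room for a moderate change in either direction. Values of the miR-17 seed strands were 0.14 (SE 0.29) for miR-93-5p and 0.42 (SE 0.37, 95% interval -0.37 to 1.21) for miR-106b-5p. Against these, miR-106b-3p had -0.15 (SE 0.37) and miR-93-3p -0.60 (SE 0.56). The 5 members had a median of -0.030, beside -0.041 for all tested miRNAs, with 2 of 5 above 0 and 3 of 5 below, beside 46.5% and 53.5% of those tested. The adjusted p by edgeR was 0.995 for each. Leaving out normal glucose replicate 1 gave 0.29 for miR-106b-3p, 0.13 for miR-93-3p and 0.21 for miR-25-3p, and leaving out high glucose replicate 2 gave 0.029 for miR-106b-3p and 0.13 for miR-25-3p. Without mannitol replicate 2, which enters this contrast only through the shared filter, scaling and spread, all 5 members stood higher. miR-25-3p then had 0.075, and the median over all tested miRNAs was 0.043.

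Setting high glucose against mannitol asks what differs when osmolality is matched. Again 0 of 5 members passed in edgeR, DESeq2 or limma-voom, and 0% of the 361 miRNAs were called by edgeR. At an unadjusted p under 0.05 there were 0 members by any of these, beside 5.26% of tested miRNAs by edgeR. All 5 had overlapping groups, beside 10.2% of tested miRNAs that did not. The strands with the miR-17 seed had 0.50 (SE 0.37, 95% interval -0.29 to 1.28) for miR-106b-5p and 0.39 (SE 0.29, 95% interval -0.23 to 1.01) for miR-93-5p, and each was higher in high glucose in 7 of 9 pairs of libraries. With the authors' library constant as the scale they stood at 0.043 and -0.076, in a setting that moved the median over the 361 miRNAs to -0.59. On the other arm miR-106b-3p had -0.55 (SE 0.37, 95% interval -1.34 to 0.24) and was higher in high glucose in 2 of 9 pairs. For miR-25-3p the value was -0.030 (SE 0.27, 95% interval -0.61 to 0.55). With the constant miR-106b-3p had -1.18 (unadjusted p = 0.0161, adjusted p = 0.196 by edgeR). Without mannitol replicate 2 it had -0.80 (unadjusted p = 0.0225, adjusted p = 0.133 by edgeR). In that setting miR-106b-5p had 0.97 (unadjusted p = 0.0159, adjusted p = 0.111) and miR-93-5p 0.63 (unadjusted p = 0.0345, adjusted p = 0.162). Of the 372 miRNAs tested there, 96 had an unadjusted p under 0.05. The remaining strand, miR-93-3p, had 0.11 (SE 0.56), or -0.54 scaled to the constant. Adjusted p-values by edgeR were 0.723 to 0.994. The members' median was 0.11, beside -0.040 for all tested miRNAs, with 3 of 5 above 0 and 2 of 5 below, beside 46.5% and 53.5% of those tested.

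The contrast of mannitol with normal glucose carries added osmolality without added glucose. The mannitol itself and the osmolality it adds cannot be told apart here. In this contrast 0 of 5 members passed in edgeR, DESeq2 or limma-voom, with 0% of the 361 miRNAs called by edgeR. At an unadjusted p under 0.05 there were 0 members by any of these, beside 1.39% of tested miRNAs by edgeR. Groups overlapped for all 5 members and failed to overlap for 3.32% of tested miRNAs. For miR-25-3p the fitted log2 change was 0.00 with an SE of 0.27 and a 95% interval of -0.58 to 0.58, and its unadjusted p was the largest of the 361. The others had 0.40 (SE 0.37) for miR-106b-3p, -0.079 (SE 0.37) for miR-106b-5p, -0.25 (SE 0.29) for miR-93-5p and -0.70 (SE 0.55) for miR-93-3p, with an adjusted p of 0.9996 for each by edgeR. For miR-106b-3p the value was 0.83 (unadjusted p = 0.0463, adjusted p = 0.988 by edgeR) without normal glucose replicate 1, 0.77 (unadjusted p = 0.0279, adjusted p = 0.461 by edgeR) without mannitol replicate 2 and 0.14 without mannitol replicate 1. The value of miR-93-3p was 0.022 without normal glucose replicate 1, its highest library. The 5 members had a median of -0.079, beside 0.011 for all tested miRNAs, with 2 of 5 above 0 and 3 of 5 below, beside 52.1% and 47.9% of those tested. Under the authors' constant miR-106b-5p had 0.33 and miR-93-5p 0.13, in a setting that moved the median over the 361 miRNAs to 0.50. The 3 comparisons share libraries, so their values are not separate evidence.

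**Figure D3:**
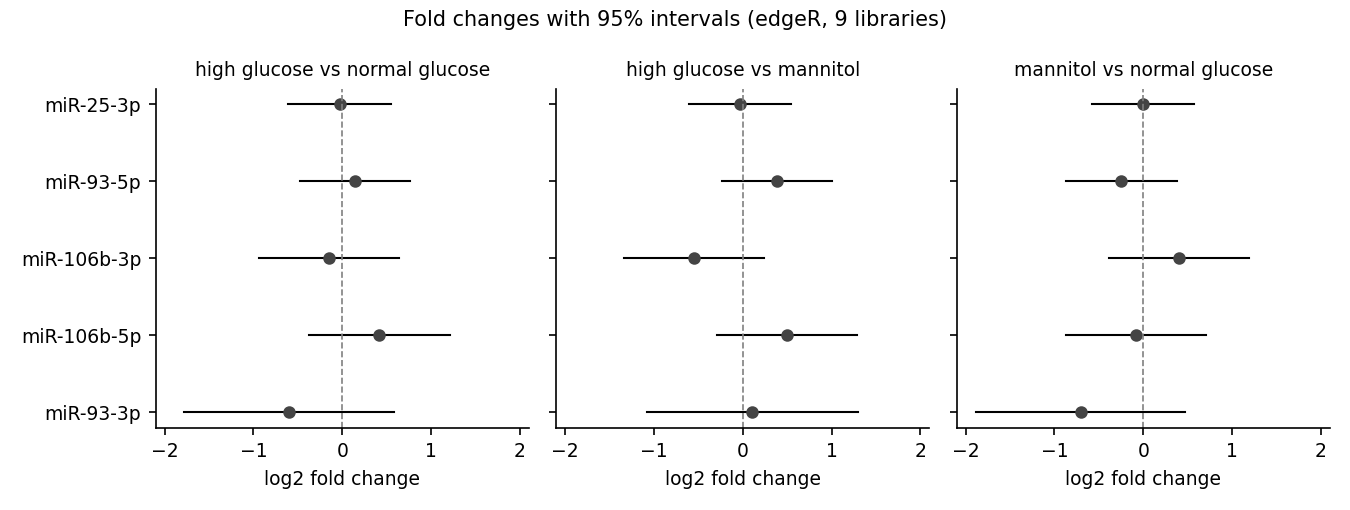
Log2 fold change (points) with its 95% interval (lines) for the 5 members listed in all libraries, from the joint edgeR fit of 9 libraries, in the 3 comparisons; a value above 0 means higher in the group named first. Every interval includes 0, and those of miR-25-3p run from about -0.61 to 0.55 in both high glucose comparisons.

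Over the 9 libraries the members differed in how widely their levels spread. The standard deviation of log2 CPM was 0.30 for miR-93-5p, 0.36 for miR-106b-5p and 0.38 for miR-25-3p, below the median of 0.45 over the 260 miRNAs listed in all libraries, and 0.64 for miR-106b-3p and 0.77 for miR-93-3p, above it. The levels of miR-106b-3p and miR-25-3p, which come from the outer hairpins, ran together, with Pearson's r = 0.933 (exact permutation p = 0.00024, adjusted 0.00351 over 15 relations) and Spearman's rho = 0.967 (exact permutation p = 0.000165, adjusted 0.00248). Without mannitol replicate 1 and normal glucose replicate 1, the libraries farthest from the median, r was 0.872, and for deviations from the group means it was 0.970. Both strands were ordered alike by library number in every group, while the permutation takes the 9 libraries as exchangeable. For deviations from the means of same-numbered libraries r was 0.854, and with group and number means both removed it was 0.590, both computed after the data were seen and given with no p. Outside the cluster there were miRNAs that ran more closely with each of these strands. The highest of 255 candidates, miR-34b-3p, had r = 0.979 with miR-106b-3p and 0.951 with miR-25-3p. How many candidates reached 0.933 was not counted. miR-93-3p and miR-25-3p had r = 0.775 (exact permutation p = 0.0160, adjusted 0.0481) and rho = 0.783 (exact permutation p = 0.0172, adjusted 0.0517), with r = 0.673 without 2 libraries. With group and number means both removed their r was 0.740.

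No positive relation between the arms of 1 hairpin passed. The arms of Mir106b had r = -0.660 (exact permutation p = 0.0575, adjusted 0.123; -0.504 without 2 libraries) and rho = -0.650 (exact permutation p = 0.0666, adjusted 0.111). For the arms of Mir93 r was 0.364 (exact permutation p = 0.340, adjusted 0.392; -0.0930 without 2 libraries) and rho 0.350 (exact permutation p = 0.359, adjusted 0.414). The miR-17 seed strands miR-106b-5p and miR-93-5p had r = 0.593 (exact permutation p = 0.0840, adjusted 0.158; 0.389 without 2 libraries) and rho = 0.383 (exact permutation p = 0.312, adjusted 0.391). With group and number means both removed, r was 0.926 for these strands, -0.505 for the arms of Mir106b and -0.411 for those of Mir93. That removal was chosen after the data were seen, leaves few free values among 9 libraries and is given with no p. A relation that misses the threshold is not shown to be absent. The other 5 pairs of members had r between -0.549 and 0.714, with exact permutation p adjusted to between 0.0803 and 0.980. With both means removed their r ran from -0.623 to 0.587. All points of a library share its depth, its scaling and its base composition.

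Base composition moved with these levels. It was taken from miRNAs with a RefSeq sequence, which held at least 79.2% of a library's counts. The count-weighted GC content of the other such miRNAs of a library was 45.5%, 44.7% and 45.0% in high glucose replicates 1 to 3, 46.7%, 44.9% and 46.7% with mannitol, and 46.0%, 45.3% and 45.4% in normal glucose. Against it miR-106b-3p, with 63.6% GC, had r = 0.914 (exact permutation p = 0.000468, adjusted 0.00351), rho = 0.900 (exact permutation p = 0.00203, adjusted 0.0152) and r = 0.893 without 2 libraries. With 50.0% GC, miR-25-3p had r = 0.777 (exact permutation p = 0.0160, adjusted 0.0481), rho = 0.817 (exact permutation p = 0.0108, adjusted 0.0404) and r = 0.876 without 2 libraries. The strand of lowest GC in the cluster, miR-106b-5p at 42.9%, had r = -0.844 (exact permutation p = 0.00450, adjusted 0.0225), rho = -0.883 (exact permutation p = 0.00308, adjusted 0.0154) and r = -0.668 without 2 libraries. For miR-93-3p, with 59.1% GC, r was 0.530 (exact permutation p = 0.141, adjusted 0.212; 0.911 without 2 libraries), and for miR-93-5p, with 52.2%, it was -0.377 (exact permutation p = 0.333, adjusted 0.392; 0.434 without 2 libraries). The libraries left out were mannitol replicates 1 and 3. With group and number means both removed r against GC was 0.926 for miR-106b-3p, 0.439 for miR-25-3p, 0.546 for miR-93-3p, -0.781 for miR-106b-5p and -0.829 for miR-93-5p. These too were computed after the data were seen and have no p. Across the 308 tested miRNAs with a RefSeq sequence, which are not independent replicates, fold changes followed GC with Spearman's rho of -0.378 in high against normal glucose, -0.613 in high glucose against mannitol and 0.362 in mannitol against normal glucose. With each library's GC trend removed, an alternative chosen after the data were seen, miR-106b-3p had 0.12 in high glucose against mannitol, 0.16 in high against normal glucose and 0.039 in mannitol against normal glucose. The same setting gave 0.22 for miR-106b-5p and 0.48 for miR-93-5p in high glucose against mannitol.

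**Figure D4:**
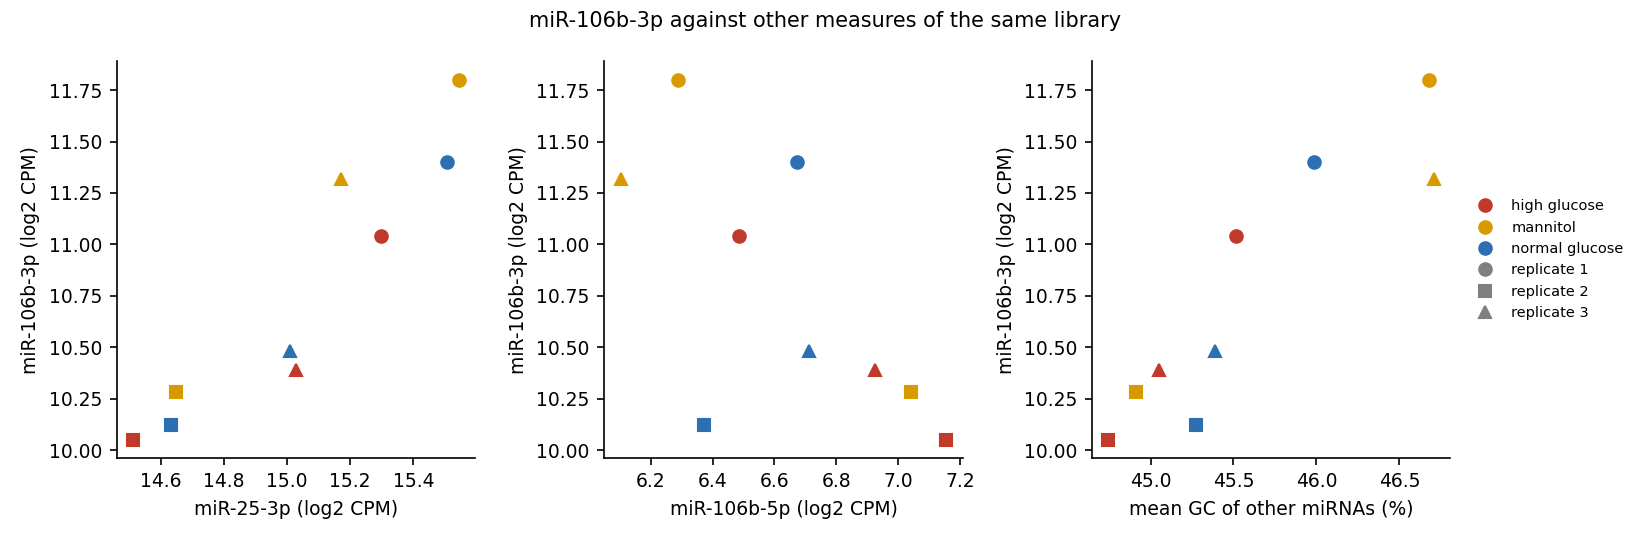
Each point is a library (colour for the group, shape for the replicate number): log2 CPM of miR-106b-3p against log2 CPM of miR-25-3p on the left, against log2 CPM of miR-106b-5p in the middle, and against the count-weighted GC content of the other miRNAs with a RefSeq sequence on the right. The left and right panels rise (r = 0.933 and 0.914), and the middle panel falls (r = -0.660).

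Outside the cluster, the miRNA whose log2 CPM over the 9 libraries was most like miR-93-5p was its seed relative miR-17-5p (Pearson's r = 0.935 among 255 candidates, chosen as the highest and given with no p), followed by miR-872-3p (0.838) and miR-200a-5p (0.814). For miR-106b-5p these were miR-21a-5p (0.966), miR-344-3p (0.951) and miR-29a-3p (0.937). miR-25-3p was most like miR-34b-3p (0.951), miR-652-3p (0.943) and miR-484 (0.924), and miR-106b-3p was most like miR-34b-3p (0.979), miR-5114 (0.972) and miR-149-5p (0.951). The nearest to miR-93-3p were miR-423-3p (0.905), miR-30c-5p (0.878) and miR-652-3p (0.842).

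The cluster supplied most of the counts of strands with either of its main seeds. Of 5 other identifiers in the files with the seed AAAGUGC, miR-17-5p and miR-20a-5p of the miR-17~92 cluster were listed in all libraries, miR-20b-5p in 1, and miR-106a-5p and miR-6383 in none. All strands with this seed summed to 3980 ± 96.3 CPM in high glucose, 3119 ± 1108 CPM in mannitol medium and 3747 ± 630.1 CPM in normal glucose (± SD of 3 libraries). Of these sums miR-93-5p and miR-106b-5p together gave 60.0% ± 1.88 in high glucose, 66.4% ± 7.11 with mannitol and 61.4% ± 5.78 in normal glucose (SD, n = 3 each). In mannitol replicate 3 the sum was 1912 CPM, the lowest of the 9 libraries. Of the 5 other identifiers with the seed AUUGCAC, miR-92a-3p and miR-92b-3p were listed in all libraries, miR-32-5p in 5, miR-363-3p in 1 and miR-367-3p in none. miR-25-3p gave 82.6% ± 0.908 of that seed's counts in high glucose, 76.9% ± 7.53 with mannitol and 75.2% ± 7.84 in normal glucose (SD, n = 3 each).

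The proportions between members and relatives overlapped between the groups. miR-93-5p was 4.62 to 6.42 times as abundant as miR-17-5p in the 9 libraries, and the log2 ratio averaged 2.28 ± 0.0704 in high glucose, 2.50 ± 0.228 with mannitol and 2.39 ± 0.138 in normal glucose (SD, n = 3 each). High glucose differed from normal glucose by -0.12 (exact permutation p = 0.3) and from mannitol by -0.22 (exact permutation p = 0.3). miR-106b-5p was rarer than miR-20a-5p, at 0.0708 to 0.211 reads for each of its reads. miR-25-3p exceeded miR-92a-3p throughout, with log2 ratios of 2.17, 2.33 and 2.31 in high glucose replicates 1 to 3, 1.84, 2.41 and 1.17 with mannitol, and 1.67, 1.05 and 2.30 in normal glucose. The high glucose libraries were closely alike and the other groups ranged around and below them, so the groups overlapped. The difference was 0.60 for high against normal glucose (exact permutation p = 0.2) and 0.46 for high glucose against mannitol (exact permutation p = 0.4). By edgeR miR-92a-3p had -0.69 (SE 0.40, adjusted p = 0.995) and -0.61 (SE 0.40, adjusted p = 0.712) in these comparisons, where miR-25-3p had -0.030 in both. Of the relatives tested in these comparisons, 2 with the first seed and 3 with the second, 0 passed in edgeR and 0 had an unadjusted p under 0.05. The erythroid sums given above lay in a lower range in high glucose than in normal glucose. They were mostly miR-486a-5p, with means of 3680 CPM in high and 6345 CPM in normal glucose, while miR-451a had 181 and 198 CPM. In this contrast 9.42% of all tested miRNAs had groups without overlap. The part of erythroid miRNAs in the ratio of miR-25-3p to miR-92a-3p was not tested.

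**Figure D5:**
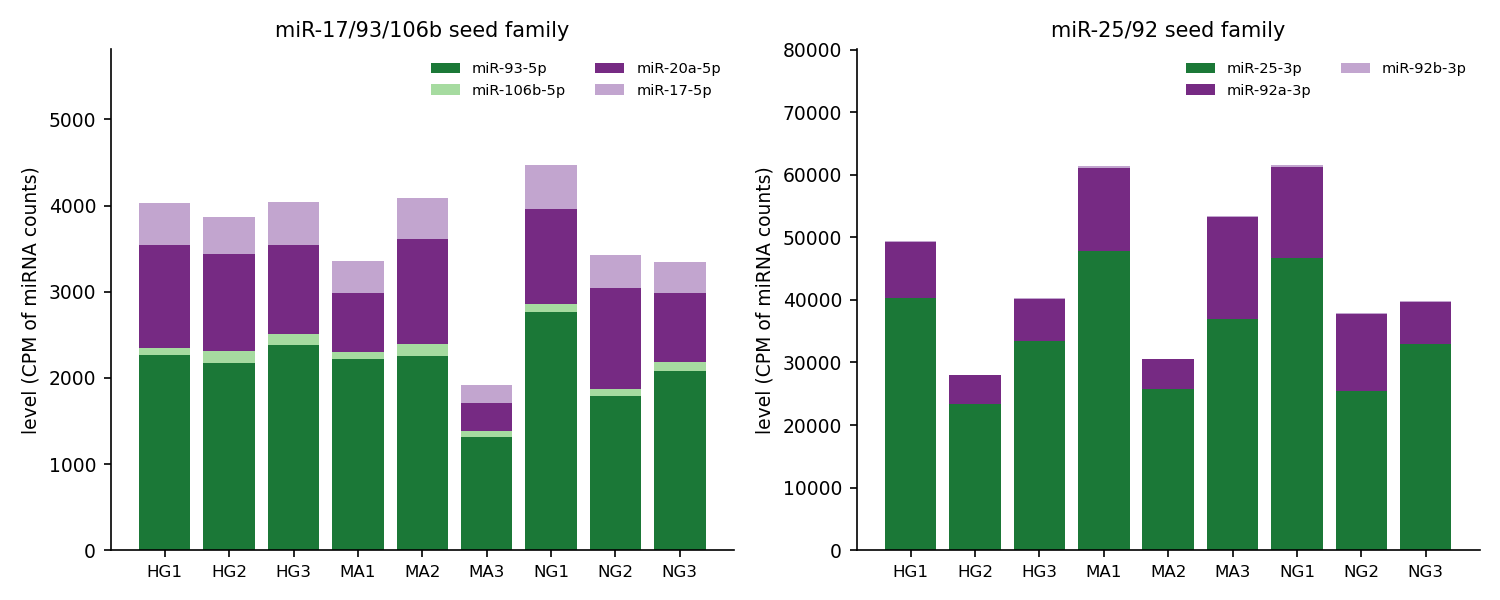
Stacked levels in CPM of the miRNAs with the seed AAAGUGC (left) and the seed AUUGCAC (right) that were listed in all libraries, for high glucose (HG), mannitol (MA) and normal glucose (NG) libraries 1 to 3, with members of the cluster in green and relatives of other clusters in purple. miR-93-5p and miR-25-3p form the largest block of every bar, and the left bar of MA3 is the lowest at 1912 CPM.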

How the data were processed

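Small RNA was measured in 9 libraries of podocyte vesicles. Per the file headers, the first value column holds total counts, and these counts per miRNA were used as deposited. The second holds values the authors normalized, which are RPM equal to the count divided by 1 constant per library; the reads behind that constant are not described. Tools named in the submitters' processing notes are bcl2fastq and BWA, with the build mm10; the sources used here give no versions. Groups came from the treatment label, and a title without a number was taken as replicate 1. Chi-square per degree of freedom between libraries of a group was 74.8 to 645, so none was a repeat of another.

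All 9 libraries entered 1 edgeR 4.0.16 fit in R 4.3.3 (TMM scaling, expression filter by group, robust quasi-likelihood test, Benjamini-Hochberg adjustment over the 361 of 479 listed miRNAs that passed). The filter kept all 6 members, of which 5 had counts in every library. Ratios and correlations used counts and log2 CPM with no pseudocount and exact permutation tests. The alternatives were DESeq2 1.42.0 (also its size factors alone), limma 3.58.1 with voom, the authors' constant, no filter, zeros set to 9 reads, the 2 groups alone, a replicate block, each library left out and a removed GC trend. The edgeR fit was checked on simulated data. RefSeq gave sequences for 308 of the 361 tested miRNAs. The text names all members, their same-seed relatives, the 3 miRNAs most alike each member, neighbours in level and cell type markers. Members and lists were chosen with earlier results of these data known.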

Additional observations from a re-analysis of the deposited data

How the results depend on the processing

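No member passed an adjusted p of 0.05 under any of the 18 alternatives of each comparison, whose lowest adjusted p over the 5 members was 0.679 in high against normal glucose, 0.111 in high glucose against mannitol and 0.461 in mannitol against normal glucose. Over all miRNAs the count of calls was 0 by edgeR, with 10, 19 and 5 at an unadjusted p under 0.05 in that order of comparisons. Without the expression filter it was 2, 3 and 1, and in high glucose against mannitol it was 1 by DESeq2 (miR-182-5p) and 0 to 1 with a library left out, where the 1 was miR-19b-3p without mannitol replicate 2, with 96 at an unadjusted p under 0.05. No member was among these calls. The labels do not say what the numbers of the titles stand for. Deviations of same-numbered libraries correlated at 0.0431 to 0.682, over 0.1 in 7 of 9 pairs, and those of different numbers at -0.708 to 0.341, over 0.1 in 3 of 18. Deviations from a group mean sum to 0 within the group, so the second set of values is tied to the first and is not separate evidence. All 3 pairs of high and normal glucose were over 0.1 (0.296 to 0.322), and 2 of 3 in each other comparison, so a shared number effect is a hint from the data and not from the labels. With them as a replicate block 0 miRNAs were called in each comparison, with 19, 52 and 17 at an unadjusted p under 0.05, and the members' medians were -0.017, 0.082 and -0.18. Scaled to the authors' constant, high glucose against mannitol gave -0.076 for miR-93-5p and -0.54 for miR-93-3p, and mannitol against normal glucose gave 0.33 for miR-106b-5p and 0.13 for miR-93-5p. Relative to the median of all tested miRNAs in that setting they were 0.52, 0.053, -0.17 and -0.38. The log2 ratio of the summed levels of high glucose to mannitol was -0.19, and -0.60 with the authors' values. With the GC trend removed miR-106b-3p had 0.16 against normal glucose and 0.12 against mannitol in high glucose, while mannitol against normal glucose gave 0.029 for miR-106b-5p and -0.0040 for miR-25-3p. By limma-voom miR-93-3p had -0.059 in high glucose against mannitol, and without the filter miR-25-3p had -0.016 in mannitol against normal glucose. The cause of these shifts was not tested.

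Signs also turned with 1 library left out. In high against normal glucose the values ran from -0.39 to 0.29 for miR-106b-3p, -0.16 to 0.21 for miR-25-3p and -1.05 to 0.13 for miR-93-3p. In high glucose against mannitol they ran from -0.42 to 0.45 for miR-93-3p and -0.20 to 0.10 for miR-25-3p. In mannitol against normal glucose they ran from -0.45 to 0.10 for miR-106b-5p, -0.13 to 0.24 for miR-25-3p and -1.04 to 0.022 for miR-93-3p. Differences of log2 ratios turned sign likewise in mannitol against normal glucose, from -0.64 to 0.19 for miR-93-3p over miR-93-5p, -0.70 to 0.13 for miR-106b-5p over miR-25-3p, -0.037 to 0.32 for miR-106b-5p over miR-93-5p and -0.18 to 0.45 for miR-25-3p over miR-92a-3p. In high against normal glucose they ran from -0.019 to 0.34 for miR-93-5p over miR-25-3p and -0.10 to 0.35 for miR-106b-5p over miR-20a-5p, and in high glucose against mannitol from -0.12 to 0.28 for miR-106b-5p over miR-93-5p. Of 540 values over all alternatives, 493 kept sign and side of the threshold or moved by less than the spread between libraries. Those 493 include summed levels whose sign turned within that spread. They also include ratio values that could not change. No ratio tested held a zero, and same-number differences average to the difference of the group means. Of the rest, 41 values of members or ratios turned sign, 5 were counts of calls that rose and 1 summed level moved further. Counts of 16 to 122 reads limit what can be said of miR-93-3p and miR-25-5p.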
